A study of Mus musculus with 20 samples.

Results

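Promoter methylation was compared among 10 single blastocysts from the Padi6-mutant group, out of 20 blastocysts in the study. All samples labelled Padi6-mutant were taken, numbered 11 to 20, and the other 10 were labelled Control, numbered 1 to 10. The series describes the mutant embryos as offspring of oocytes carrying the Padi6 P620A allele, so the mutation acts through the egg. The series text describes embryos that had got past an early cleavage block, and arrest or survival was not measured in these files. Each sample was 1 whole embryo, with its inner cell mass and trophectoderm together, and no RNA level was used to check the tissue label. Mother, litter, sex, embryo age, strain and batch are not given in the labels, so embryos can share a mother, and a p-value refers to the variation among these embryos alone.

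PADI6 is an egg protein of the subcortical maternal complex, a store of maternal proteins that the cleaving embryo inherits. Methylation of CpG sites is largely removed after fertilisation, and the blastocyst is close to the lowest point of the life cycle. What remains is copied at each division by the maintenance enzyme DNMT1 with its partner UHRF1, and imprinted loci are the best known places where it is kept. An embryo can therefore differ from another either in its overall level or at particular loci. Both kinds of difference were measured here, in the library of each embryo. No embryo had a further library, so the level of an embryo and that of its library were not separated. Whether a difference in overall level came from the embryo or from its library, such as through bisulfite conversion, was not tested.

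Levels were read at 51443 autosomal promoter windows of 3500 bp, as the percentage of methylation in each window. Embryos 11, 12 and 14 were densely covered, with a value in 37842, 40019 and 42208 windows. The other 7 were sparsely covered, from 2845 windows in embryo 17 to 13499 in embryo 19. Read depth is unknown. Between 31.5% of the values in embryo 14 and 75.9% in embryo 16 were exactly 0, and between 0.315% (embryo 12) and 9.83% (embryo 18) were exactly 100. Single values of sparsely covered embryos thus fall on coarse steps, and results are given for densely and sparsely covered embryos apart where they rest on single windows.

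The mutant embryos differed in their overall level, and embryo 12 was the lowest at every class of promoter. Windows were sorted by their mean in the control embryos (at least 5 control values), a choice that uses no mutant value. At the 12008 windows under 5% in controls, the mutant embryos had 6.63% ± 1.35 (SD, n = 10), from 4.01% in embryo 12 to 8.61% in embryo 14. At the 16037 windows from 5% to 20%, they had 12.2% ± 2.92 (SD, n = 10), from 6.47% in embryo 12 to 16.6% in embryo 14. At the 4857 windows from 20% to 30%, the level was 18.2% ± 4.35 (SD, n = 10), with the same embryos at the ends at 9.12% and 23.6%. The 4765 windows from 30% to 50% stood at 23.8% ± 5.21 (SD, n = 10), between 12.2% in embryo 12 and 30.9% in embryo 18. The 1062 windows at 50% or more stood at 25.7% ± 6.04 (SD, n = 10), between 13.96% in embryo 12 and 33.0% in embryo 18.

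Embryo 14 had between 2.11 and 2.58 times the level of embryo 12 in the 5 classes. The span between embryos was thus close to proportional to the level, with a coefficient of variation between 20.4% and 23.9%. Among the 6 densely covered control embryos, the highest was between 1.15 and 1.53 times the lowest. The control embryos also set the classes, and the difference between these ratios was not tested. With the sparsely covered controls included, control levels ran from 0.867% to 3.07% at windows under 5%. They ran from 9.09% to 16.3% at windows of 5% to 20% and from 19.3% to 40.9% at 20% to 30%. At 30% to 50% they ran from 30.8% to 60.0%, and at 50% or more from 52.1% to 79.9%. The control ratios of 1.15 to 1.53 thus hold for the densely covered controls alone.

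**Figure D1:**
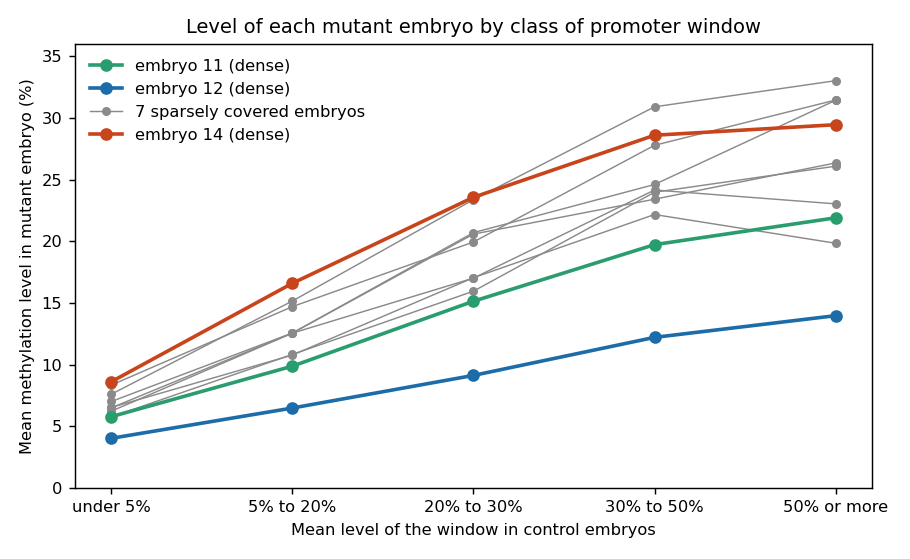
Mean methylation level (vertical axis, percent) of each of the 10 mutant embryos in 5 classes of promoter window, sorted by mean level in control embryos (horizontal axis). Each line is 1 embryo; embryo 12 lies lowest in all 5 classes, from 4.01% to 13.96%, and embryo 14 highest in the first 3.

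Embryos that were low on one set of chromosomes were low on another. The clearest reading came from 5674 weakly methylated windows, at 5% to 20% in controls, with at least 5 values in each group and no overlap with the methylated windows described below. To compare embryos that had values at different windows, the window's mean over the mutant embryos was subtracted from each value, and the embryo's average of these deviations was added to the overall mean. On this scale the levels were 6.17% in embryo 12, 9.21% in embryo 11, 10.5% in embryo 13, 11.2% in embryo 20, 11.4% in each of embryos 16 and 17, 11.6% in embryo 15, 13.6% in embryo 19, 14.3% in embryo 14 and 14.4% in embryo 18. Embryos 12 and 11 were low, embryos 14, 18 and 19 high, and the remaining 5 lay within 1.16 points of each other.

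The order repeated between odd-numbered and even-numbered chromosomes. Embryo 12 had 6.04% on the 3242 odd-chromosome windows and 6.35% on the 2432 even-chromosome windows, embryo 11 had 9.20% and 9.23%, and embryo 14 had 14.1% and 14.6%. The largest gap between the sets was 1.06 points, in embryo 15. Across the 10 embryos Pearson's r was 0.98 (two-sided permutation p = 2e-05, adjusted p = 1e-04 over the 5 relations tested) and Spearman's rho was 0.90 (permutation p = 0.00072, adjusted p = 0.00317). Without the 2 embryos farthest from the median, r was 0.96 (exact permutation p = 0.000422, n = 8), and within the 7 sparsely covered embryos it was 0.92 (exact permutation p = 0.000198), with a rho of 1.0 (exact permutation p = 0.000397).

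Methylated windows gave a similar order with more scatter. There were 1551 methylated windows, defined as 30% or more in the control mean with at least 5 values in each group. Their levels were 12.98% in embryo 12, 21.4% in embryo 11, 22.5% in embryo 16, 23.6% in embryo 20, 23.7% in embryo 17, 24.3% in embryo 13, 24.5% in embryo 15, 27.5% in embryo 19, 29.1% in embryo 14 and 31.9% in embryo 18 (24.1% ± 5.07, SD, n = 10). Embryo 12 lay 8.41 points below its nearest neighbour, while the next 6 embryos spanned 3.13 points. Levels at weakly and at methylated windows followed each other across embryos with r = 0.97 (permutation p = 4e-05, adjusted p = 1e-04) and rho = 0.89 (permutation p = 0.00127, adjusted p = 0.00317). Without the 2 farthest embryos r was 0.93 (exact permutation p = 0.00268, n = 8). Among the 7 sparsely covered embryos alone the relation passed by Pearson's r (0.88, exact permutation p = 0.0149, adjusted p = 0.0372) and did not pass by rho (0.75, exact permutation p = 0.0663, adjusted p = 0.166). There it rested on embryos 18 and 19, the farthest from the median: without them r was 0.06 (n = 5).

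Within the methylated windows themselves, odd and even chromosomes gave a looser relation that failed the correction. Embryo 12 had 14.2% on odd and 11.5% on even chromosomes, embryo 11 had 21.03% and 21.8%, embryo 14 had 29.4% and 28.7%, and embryo 19 had 27.1% and 27.9%. Embryo 17, with 207 values in all, had 18.1% and 30.02%, and embryo 18, with 323 values, had 29.6% and 35.3%. The correlation was r = 0.67 (permutation p = 0.0327, adjusted p = 0.0545) and rho = 0.54 (permutation p = 0.113, adjusted p = 0.189). Without the 2 farthest embryos r was 0.79 (exact permutation p = 0.015, n = 8), and within the 7 sparsely covered embryos 0.18 (exact permutation p = 0.666). Single embryos decide it: without embryo 12 r was 0.36, and without embryo 17 it was 0.90 (exact permutation adjusted p = 0.00157, n = 9).

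**Figure D2:**
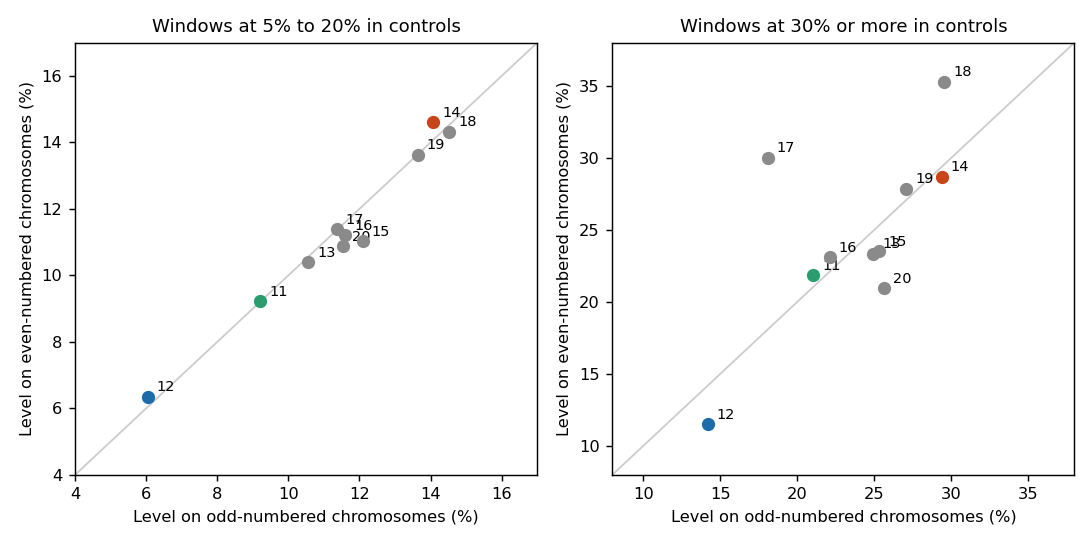
Level of each mutant embryo on odd-numbered (horizontal, percent) against even-numbered chromosomes (vertical, percent) at 5674 weakly methylated windows (left) and 1551 methylated windows (right), with the line of equality. Points carry the embryo's number and the densely covered embryos 11, 12 and 14 are coloured; on the left the largest gap is 1.06 points, and on the right embryo 17 lies at 18.1% and 30.02%.

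Control embryos had embryo-wide differences too, and their size relative to the mutants depended on which embryos were taken. Over the 14033 autosomal windows with at least 5 values in each group, whatever their level, mutant embryos ran from 6.28% in embryo 12 to 13.97% in embryo 18 (SD 2.29) and controls from 9.68% to 18.7% (SD 2.47). The highest control was the sparsely covered embryo 7, and without it controls ran to 14.4% (SD 1.45, n = 9). Among densely covered embryos the mutants ran from 6.28% to 13.9% (SD 3.81, n = 3) and the controls from 9.68% to 13.1% (SD 1.37, n = 6), while among sparsely covered ones the mutants had the smaller SD (1.24, n = 7, against 2.82, n = 4). These differences in spread were not tested. Odd and even chromosomes correlated with r = 0.95 across the 10 mutant embryos (permutation p = 0.00019; rho 0.81, p = 0.00676) and with r = 0.97 across the 10 controls (permutation p = 9e-05; rho 0.87, p = 0.00214), all unadjusted. Without the 2 farthest embryos r was 0.84 in mutants and 0.86 in controls. A level shared by the chromosomes of an embryo's library was thus found in both groups, and the part of the library in it was not tested.

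The level at methylated windows showed no relation to coverage that passed the test. Against the number of windows with a value, r was -0.39 (permutation p = 0.277, adjusted p = 0.346) and rho was -0.14 (permutation p = 0.706). Without the 2 farthest embryos r was -0.45 (exact permutation p = 0.198, n = 8). Embryos 12 and 14, near the lower and the upper end in level, had a value in 40019 and 42208 windows. A relation that missed the test in 10 embryos does not show that level and coverage are unrelated. Read depth is unknown, and its part was not tested.

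The embryo-wide order was even from chromosome to chromosome. Over 3441 methylated windows read in all 3 densely covered mutant embryos, the mean level was 20.3% in embryo 11, 12.8% in embryo 12 and 28.9% in embryo 14. On 19 of 19 chromosomes embryo 12 was lowest, embryo 11 between and embryo 14 highest. The same order held on 19 of 19 chromosomes over all 28744 shared windows, where the means were 10.5%, 6.75% and 16.1%. In bins of 5 Mb the full order was found in 378 of 457 bins (82.7%), embryo 12 was lowest in 403 (88.2%) and embryo 14 highest in 427 (93.4%). Chromosomes and bins of an embryo share its library and are not replicates, so these counts carry no test.

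**Figure D3:**
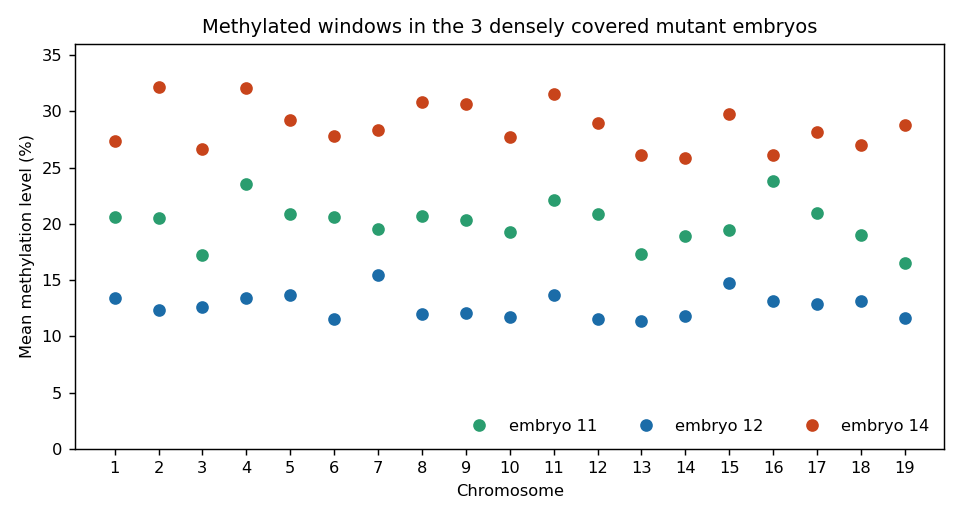
Mean methylation level (vertical axis, percent) at methylated windows on each autosome (horizontal axis) in the densely covered mutant embryos 11, 12 and 14, 1 point per embryo and chromosome. The 3 embryos keep 1 order on 19 of 19 chromosomes, around 20.3%, 12.8% and 28.9%.

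With the sparsely covered embryos included, embryo 12 was lowest on 12 of 19 chromosomes and below the mean of the mutant embryos on 19. Embryo 14 was below that mean on 2 chromosomes and so was embryo 18, which was highest on 10. Embryo 17 was lowest on 5 chromosomes and highest on 2, with chromosome levels from 5.00% to 51.5%, and embryo 18 ran from 5.14% to 73.03%. These were the embryos with the fewest values at methylated windows, 207 and 323 over all chromosomes. Each pair of chromosomes was then correlated across the 10 embryos. Of 171 pairs, 154 had a positive r, with a median of 0.48 and a range from -0.42 to 0.90. By permutation tests 49 pairs had an unadjusted p under 0.05, all of them positive, and 0 pairs (0.0%) passed after adjustment (smallest adjusted p 0.0624). Without embryo 12 the median r was 0.28 and 122 pairs were positive, with 26 at an unadjusted p under 0.05.

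Among windows methylated in controls, the measured level of a window in 1 densely covered mutant embryo said little about its measured level in another. Among the 3441 methylated windows, embryo 12 was below embryo 14 in 2355 (68.4%), above it in 753 and equal to it in 333. Embryo 12 was at exactly 0 in 42.2% of them, embryo 11 in 34.4% and embryo 14 in 16.9%, against 6.15% to 17.6% in the 6 densely covered controls. At 50% or more stood 6.51% of the windows in embryo 12, 16.2% in embryo 11 and 22.7% in embryo 14, against 30.3% to 50.5% in those controls, which also chose the windows. Across these windows Pearson's r was 0.02 between embryos 11 and 12, 0.07 between 11 and 14 and 0.02 between 12 and 14. Over all 28744 shared windows, whatever their control level, r was 0.11, 0.18 and 0.13 for the same pairs. The 15 pairs of densely covered controls ran from -0.04 to 0.09 at the methylated windows. The correlations at methylated windows are across windows chosen from a narrow range of control levels, windows are not independent replicates, and they are given as a description. Counting error in single windows can lower such an r. Its part was not tested, since read depth is unknown.

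All 3 densely covered embryos were at 20% or more in 290 of the 3441 windows (8.43%). At 30% or more there were 72 windows (2.09%), and at 50% or more 7 (0.203%), while all 3 were under 10% in 243. Of those 7 windows, the overlapping pair on chromosome 1 was read most widely. The window chr1:24650992-24654491 (GRCm39) had 56.9% in embryo 11, 54.0% in embryo 12 and 51.4% in embryo 14, and a control mean of 41.0%. In the 6 sparsely covered embryos with a value it had 59.4% in embryo 15, 33.3% in embryo 13, 30.8% in embryo 18, 25% in embryo 20, 11.4% in embryo 16 and 0% in embryo 19. It was thus kept in the 3 embryos that chose it and spread widely in those that did not.

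The 7 sparsely covered embryos were used to ask whether windows kept in the densely covered ones were kept elsewhere. Windows at 20% or more in embryos 11, 12 and 14 had 27.6% ± 8.78 (SD, n = 7) in the other embryos, and windows under 10% in all 3 had 17.6% ± 5.98 (SD, n = 7). The difference was 9.94 points (SE 4.41), with the kept windows higher in 6 of 7 embryos. The 6 differences ran from 3.13 points in embryo 13 to 26.03 points in embryo 18, and embryo 16 went the other way by -9.79 points. An exact sign-flip permutation test gave p = 0.0781 (adjusted over 2 comparisons, p = 0.156), where the smallest p that 7 embryos allow is 0.0156. Against all other methylated windows, at 25.2% ± 3.16 (SD, n = 7), the kept windows differed by 2.38 points (SE 2.38; higher in 4 of 7 embryos; exact permutation p = 0.391). Control means were 43.5% at the kept, 40.1% at the lost and 41.4% at the other windows, while the sparsely covered controls had 51.6% at the kept, 52.7% at the lost and 54.1% at the other windows.

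Few windows kept methylation in every mutant embryo that could be read. Of 2018 autosomal windows with a value in at least 7 mutant embryos, 3 (0.149%) were at 20% or more in every one. The 2018 windows were not chosen for methylation, and their median control mean was 6.75%. Many of them thus had little methylation in controls, and the small count does not measure loss. The window chr15:78773040-78776539 (GRCm39) had 43.8% in embryo 11, 45.5% in embryo 12 and 33.3% in embryo 14. It had 50% in embryos 15, 16 and 18, and 100% in embryos 13, 19 and 20 (control mean 50.7%). Embryo 17 had no value. All 9 embryos were at 33.3% or above, and the densely covered ones lay within 12.1 points of each other.

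The window chr11:119958565-119962064 (GRCm39) was the most even of the 3, at 35.4% ± 9.31 (SD, n = 7). It had 35.7% in embryo 11, 21.2% in embryo 12, 37.5% in embryo 13, 28.2% in embryo 14, 50% in embryo 15, 42.1% in embryo 19 and 33.3% in embryo 20. Embryo 12 was the lowest here as well, and the control mean was 44.4%. The window chr17:29524112-29527611 (GRCm39) had 30% in embryo 11, 23.8% in embryo 12, 71.4% in embryo 14, 33.3% in embryo 20 and 100% in embryos 15, 16 and 19 (control mean 40.0%). Its sparsely covered embryos were mostly at the ceiling and its densely covered ones spread over 47.6 points. Just inside the threshold lay the chromosome 11 window, with a lowest value of 21.2%, and just outside lay chr17:35063644-35067143, with a lowest value of 15.0%. That window ran from 15.0% to 50.0% in 8 embryos (25.2% ± 12.9, SD, n = 8).

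Lowering the threshold to 10% gave 9 windows at 8 loci. Among the added ones, chr7:59104182-59107681 had a value in 9 embryos, all between 14.3% in embryo 12 and 50% in embryo 17 (26.4% ± 11.3, SD, n = 9; control mean 30.2%). Methylation was low in every reading at many more windows: 34 of the 2018 were at exactly 0 in each embryo with a value, 161 were at 5% or less and 751 were under 20%. The 34 windows had a median control mean of 4.22%, and 20 of them had a control mean under 5%. The control embryos under the same rule kept 395 of 20700 windows (1.91%). On the 1617 windows with at least 7 values in both groups, 2 were kept in mutants and 40 in controls, 1 of them in both. The mutant group had 7 sparsely covered embryos and the control group 4, and sparsely covered mutant embryos had at least 65.3% of their values at exactly 0, so the counts also differ in coverage.

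Many windows differed from embryo to embryo, and sparse coverage went with the widest differences. With a highest value of at least 50% and a lowest of at most 5%, 827 of the 2018 windows (41.0%) at 773 loci differed. In 618 of the 827 (74.7%) no densely covered embryo reached 50%, and in 305 (36.9%) a sparsely covered embryo was at exactly 100. The 10 loci with the largest SD had 0 and 100 among their values, and in 8 of them each value of 100 came from a sparsely covered embryo. The locus with the largest SD, chr8:11467393-11470892 (GRCm39), had 0% in embryos 11, 12 and 19, 36.4% in embryo 14 and 100% in embryos 13, 16, 17 and 20. The locus chr6:48747286-48750785 had 0% in all 3 densely covered embryos and in embryos 15 and 19, and 100% in embryos 17 and 18. The 2 loci where a densely covered embryo reached 100% were chr4:56894799-56898298, with 33.3% in embryo 11, 16.7% in embryo 12 and 100% in embryo 14, and chr11:77959742-77963241, with 100%, 14.3% and 0%. The part of counting error in these differences was not tested, since depth is unknown.

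**Figure D4:**
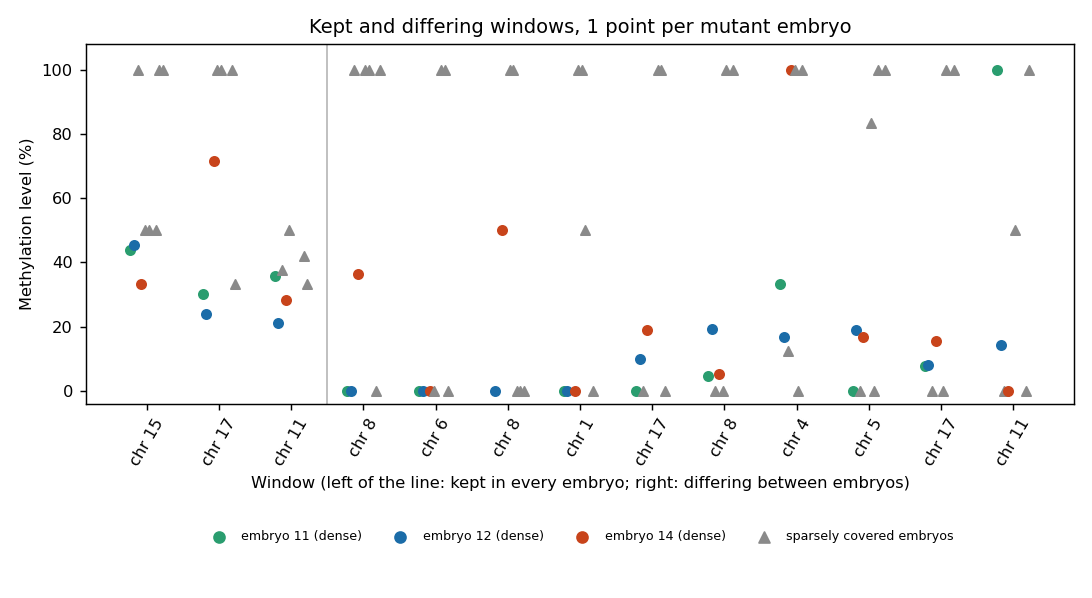
Methylation level (vertical axis, percent) of every mutant embryo with a value at the 3 windows kept in each embryo (left of the line) and the 10 loci that differed most (right), labelled by chromosome. Circles are the densely covered embryos and triangles the sparsely covered ones; all kept values are at 21.2% or above, and most values of 100 on the right are triangles.

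Among the densely covered embryos alone, 3989 of 28744 shared windows (13.9%) met the rule for differing. The direction followed the embryo-wide order: embryo 14 was at 50% or more with embryo 12 at 5% or less in 1876 windows, and the reverse held in 308. Embryo 11 was high and embryo 12 low in 1149 windows, and the reverse held in 471. The values that picked these windows also set the embryo-wide order, so the counts describe that order and add no support to it. Counted over all 10 control embryos at windows with at least 7 control values, 7203 of 20700 windows (34.8%) differed under the same rule. Counted in that way over all mutant embryos, 827 of 2018 windows (41.0%) differed. The 13.9% rests on 3 embryos, and more embryos per window make the rule easier to meet. On the 1617 windows with at least 7 values in both groups the count was 633 in mutants (39.1%) and 416 in controls (25.7%), with fewer densely covered embryos in the mutant group (3 against 6).

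Clusters of neighbouring methylated promoters mostly followed the embryo-wide order. Runs of at least 8 windows at 30% or more in controls, with gaps of at most 100 kb, gave 17 regions with 258 windows. Embryo 12 was the lowest of the densely covered embryos in 15 of them and embryo 14 the highest in 14. Over all 5 Mb bins embryo 12 was lowest in 88.2% and embryo 14 highest in 93.4%, so the counts are not particular to these regions. Some ranks rested on small gaps. At chr17:13548010-13757431 embryo 14 had 31.28% and embryo 11 had 31.25%, and at chr10:128086965-128398188 embryo 12 had 14.73% and embryo 11 had 14.95%. At chr17:34817125-35104018 embryo 12 had 16.7%, embryo 11 had 20.7% and embryo 14 had 42.2%, and at chr12:113252053-113789345 they had 5.80%, 13.8% and 32.3%. At chr6:50602937-50887249 the values were 5.00%, 29.9% and 30.8%, so embryos 11 and 14 lay together there.

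Some regions departed from that order. At chr6:48903829-49060996 embryo 11 was highest with 30.3%, against 19.9% in embryo 14 and 10.3% in embryo 12. At chr7:59104182-59447201 embryo 11 had 19.6% and embryos 12 and 14 were near each other at 12.5% and 13.5%. At chr7:29781893-30014731 the 3 embryos were within 2.25 points of each other, at 16.2% in embryo 11, 18.4% in embryo 12 and 17.3% in embryo 14. At chr9:15222370-15242368 embryo 11 was at 0.0% in 4 windows, while embryo 12 had 27.3% and embryo 14 had 27.6%. That region holds 8 windows, of which 2 do not overlap.

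The largest region, chr12:109527126-109878718 (GRCm39), held 86 windows, 30 of them not overlapping. Its densely covered embryos kept the embryo-wide order, while several sparsely covered ones departed from it on few windows. The region lies on distal chromosome 12, the arm that carries the imprinted Dlk1-Dio3 cluster, whose paternal copy keeps methylation from the sperm. The windows were not tied to genes here. The mutant embryos had 31.6% in embryo 19, 30% in embryo 16, 25.8% in embryo 14, 24.1% in embryo 11, 20.0% in embryo 13, 10.2% in embryo 12, 9.11% in embryo 15, 6.17% in embryo 20 and 0.0% in embryos 17 and 18 (15.7% ± 12.1, SD, n = 10). All 10 were below the lowest control embryo, at 41.1%, in a region that the controls chose. Embryo 18, highest at the other methylated windows with 32.3%, was at 0 in all 5 windows it had here. Embryo 17, with 24.3% elsewhere, was at 0 in all 11. Embryo 15 was at 0 in 20 of 23, with 24.8% elsewhere. Overlapping windows share reads, and without overlap embryos 17 and 18 had 2 windows each, both at 0. On non-overlapping windows embryo 15 had 21.03% (6 windows, 4 at 0) and embryo 20 had 11.6% (5 windows), against 9.11% and 6.17% over all windows.

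Across embryos the region and the other methylated windows had an r of -0.04 (permutation p = 0.917, adjusted p = 0.917) and a rho of -0.07 (permutation p = 0.845). Without the 2 farthest embryos r was 0.16 (exact permutation p = 0.698, n = 8). Over the 8 embryos with at least 10 windows in the region r was 0.35 (exact permutation p = 0.439), so the sign turned without embryos 16 and 18, which had 5 windows each. A relation that missed the test does not show that the region varies on its own. Densely covered embryos also differed within the region: embryo 11 was at 50% or more in 23 of 79 windows and at 0 in 23, embryo 14 was at 50% or more in 7 of 83 and at 0 in 5, and embryo 12 was at 50% or more in 1 of 75 and at 0 in 26. Over the non-overlapping ones, 50% or more was found in 5 of 26 windows in embryo 11, 5 of 29 in embryo 14 and 1 of 28 in embryo 12, with 6, 5 and 10 windows at 0.

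**Figure D5:**
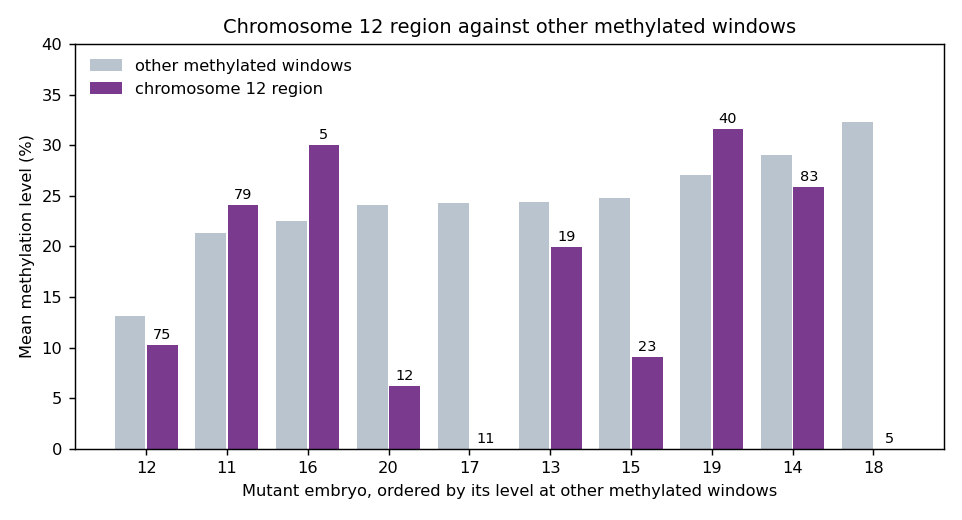
Mean methylation level (vertical axis, percent) of each mutant embryo (horizontal axis, from lowest to highest at other methylated windows) in the chromosome 12 region and at the other methylated windows, with the number of region windows read above each bar. The densely covered embryos 12, 11 and 14 rise in both measures (10.2%, 24.1% and 25.8% in the region), while embryo 18 is at 32.3% elsewhere and at 0.0% in 5 region windows.

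The spread between mutant embryos at single windows was also set against that between controls. Absolute deviations from the group's median were compared by limma over 1617 windows with at least 7 values in each group. With Benjamini-Hochberg adjustment 0 windows had a larger spread in mutants (0.0%) and 0 a smaller one (0.0%), and the smallest adjusted p was 0.645. At an unadjusted p under 0.05 there were 47 with a larger and 28 with a smaller spread. With deviations taken from the group mean 69 windows passed in limma, 53 larger and 16 smaller, so the count of 0 depends on the median.

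At methylated windows an embryo lay on average 19.8 points (SD 5.05, n = 10) from the median of the mutant group, against 23.2 points (SD 9.44, n = 10) in controls. The difference of -3.30 points did not exceed the spread between embryos (permutation p = 0.336). Among sparsely covered embryos it was -5.01 points (exact permutation p = 0.00606, 7 against 4 embryos). That comparison rests on 140 windows, against 1551 for all embryos and 1433 for the densely covered ones. Among densely covered embryos it was -4.70 points (exact permutation p = 0.0476, 3 against 6 embryos), where a median over 3 embryos lies closer to its members by construction. The control embryos chose these windows by a high control mean, which raises the control level by selection. Divided by the group's mean level the direction turned: the relative spread was 0.816 in mutants and 0.520 in controls, a difference of 0.297 (permutation p = 0.00648). This ratio cannot be told apart from that selection. Nor can it be told apart from coverage, since 7 mutant and 4 control embryos were sparsely covered.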

How the data were processed

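Bisulfite sequencing was done on the DNA of single blastocysts after bead capture of their polyadenylated RNA, per the labels' protocols. The submitters' processing notes name Trim Galore 0.4.4, Bismark 0.18.2 and build GRCm39 (mm39). The authors deposited 1 table of percent methylation per promoter window and embryo, without read counts, so depth is unknown and no interval for counting error is given. The combination of calls in a window is not given in the sources used here. Of 54080 rows 46 repeats were dropped, leaving 54034 windows, of which 51443 autosomal ones were used. In the mutant columns 514 values were whole numbers over 100, read as percents without their decimal point and divided by 1000.

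Limma 3.58.1 (R 4.3.3) was used for spread, and two-sided permutation tests over embryos (100000 resamples, exact under 10 embryos) otherwise. Adjustment was by Benjamini-Hochberg with a threshold of 0.05. The scripts were tested on simulated data. In a simulation with no relation, the odd-even correlation passed too often by Pearson's r where sparse embryos had noisier levels. Spearman's rho is given beside it, but rho was not simulated and is not shown to be free of this excess. Embryos with at least 30000 windows were called densely covered. Named windows had at least 7 mutant values: kept ones with every value at 20% or more (by highest lowest value), differing ones with a highest value of at least 50% and a lowest of at most 5% (by SD), overlapping windows merged, up to 10 each. Other windows and regions were picked with their values in view. The comparisons, members and lists were chosen with earlier results of these data known. The gene table at hand was on another build, so windows were not tied to genes, and imprinted and other gene lists were not analysed here; chromosomes took the place of imprinted domains.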

Additional observations from a re-analysis of the deposited data

How the results depend on the processing

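The relation between odd and even chromosomes at weakly methylated windows kept its direction and its call under all 16 alternatives (r from 0.92 to 0.99), and Pearson's r of weakly against methylated windows did too (0.85 to 0.98), though in sparsely covered embryos rho did not pass (exact permutation adjusted p = 0.166). These relations, the chromosome 12 region and the windows read in sparsely covered embryos were added after the data were seen. The odd-even relation at methylated windows passed with control means of at least 20% (r = 0.79), with median deviations (0.79) and without the 2 farthest embryos (0.79). With single embryos left out it ran from 0.36 to 0.90. Level against the share of values at exactly 0 or 100 gave r = 0.094 in place of -0.39. The chromosome 12 relation turned to 0.35 with at least 10 windows per embryo, to 0.0087 without embryo 11, 0.011 without embryo 16 and 0.29 without embryo 18 (single embryos left out: -0.27 to 0.29). Chromosome pairs past the threshold numbered 2 with plain means, 4 with at least 5 windows and 2 without the values that had lost their decimal point. The difference between kept and lost windows in sparsely covered embryos ran from 6.47 to 13.2 points over its 12 alternatives and passed in none of them.

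Windows kept in all embryos numbered 28, 1 and 1 with at least 5, 8 or 9 values, 9 at 10% or more, 1 at 30% or more and 20 above 0%. Differing windows numbered 5176, 193 and 29 with at least 5, 8 or 9 values, 381 with a highest of 75% and a lowest of 0%, 5 of 24 without values of exactly 0 and 100, and 3989 in densely covered embryos. Windows with a changed spread numbered 69 with deviations from the mean and 15 in densely covered embryos. The mean spread differed by -4.70 points in densely and -5.01 points in sparsely covered embryos and by 0.297 once divided by the level; with single embryos left out it ran from -4.31 to -1.76 points. The cause of these changes was not tested, beyond the smaller number of windows or embryos that an alternative leaves.

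No paired analysis was possible because the groups share no replicate number (1 to 10 in controls, 11 to 20 in mutants). Alternatives that needed imprinted genes were not run. Unknown depth limits every statement on single windows, above all in the 7 sparsely covered embryos, where a level of 0 or 100 can stand for few reads.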

Other observations

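A value was present in all 10 mutant embryos at 8 autosomal windows. A pair on chromosome 17 was low in all 10 mutant embryos. Its first window, chr17:40154244-40157743 (GRCm39), ran from 2.72% in embryo 12 to 5.55% in embryo 11 (3.96% ± 0.878, SD, n = 10). Its second, chr17:40159219-40162718, ran from 1.15% in embryo 17 to 6.63% in embryo 15 (3.46% ± 1.82, SD, n = 10). Control embryos reached 8.48% at the first and 24.0% at the second. The window chr11:3142964-3146463 had a middle level, with 7.18% in embryo 12, 10.1% in embryo 18, 11.6% in embryo 11, 14.8% in embryo 20, 16.04% in embryo 15, 16.6% in embryo 16, 18.7% in embryo 14, 20.2% in embryo 13, 22.9% in embryo 19 and 33.3% in embryo 17. Embryo 12 was lowest there too, whereas embryo 18, among the highest elsewhere, was the next lowest. Control embryos ran from 5.69% to 27.6% at that window. Windows overlapping it gave other orders. At chr11:3143764-3147263 embryos 18 and 20 were at 0.0% and embryo 12 at 7.24%. At chr11:3146325-3149824 embryo 18 was highest with 22.2%, embryo 17 was at 0.0% and embryo 12 at 3.92%. At chr9:3038244-3041743 the mutant embryos ran from 0.0% in embryo 17 to 35.0% in embryo 13, with 2.50% in embryo 12 and 27.5% in embryo 14, and controls from 12.5% to 33.3%.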
